A study of Mus musculus with 40 samples.

Results

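Homeostatic microglia genes encoding cell-surface or secreted proteins were followed in CD11b+ cells of glioma-bearing mice. The 9 genes, Tmem119, Fcrls, Gpr34, Cx3cr1, Siglech, Olfml3, Adgrg1, Gpr165 and Sparc, were chosen by name from the 54513 rows of each deposited table, of which 21826 were protein-coding, and all 9 had a value in all 35 samples. CD11b+ cells, which include microglia and monocytes/macrophages from the blood, were FACS-sorted from the tumor-bearing hemispheres of male mice, and RNA-seq of strand-specific libraries was performed. GL261 murine glioma cells carrying tdTomato and luciferase were implanted in the striatum of C57BL/6 mice, and human U87-MG glioma cells carrying RFP in athymic nude mice (Foxn1nu), which lack mature T cells. Osmotic pumps delivered into the tumor either water (vehicle), 7aaRGD, a synthetic peptide that blocks integrins through its RGD motif, or 7aaRAE, a control peptide in which that motif is altered.

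The GL261 mice at 21 days post-implantation (DPI) comprised vehicle, 7aaRGD and 7aaRAE groups, compared with naïve mice without a tumor, with 3 samples per group and 2 animals pooled per sample. The GL261 mice at 28 DPI, 1 animal per sample, received vehicle with a control IgG (n = 4), 7aaRGD with a control IgG (n = 4), an anti-PD-1 antibody (n = 3) or both 7aaRGD and anti-PD-1 (combination, n = 3). The U87-MG mice at 21 DPI comprised vehicle, 7aaRGD and 7aaRAE, with 3 samples of 2 animals each. The labels call the 28 DPI mice nude whereas the methods of the study describe C57BL/6 mice. The pseudogene H2-Ea-ps was listed at no more than 0.0976 RPKM in the 26 GL261 samples of both time points and at 22.5 to 374 RPKM in the 9 U87-MG samples of nude mice. Nnt, the other strain marker chosen, was at no more than 0.187 RPKM in any sample and did not separate the experiments. Samples were grouped here by tumor, time and treatment.

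Levels are in RPKM, reads scaled by exon length and by library size, so different genes can be set side by side. The files give no read totals, and the sequencing depth of each sample is unknown. Between 9323 and 9815 protein-coding genes were at 1 RPKM or more in each sample, where the 10 most abundant took 16.4% to 24.0% of the summed RPKM. The sorting marker Itgam was present in every sample at 51.2 to 195 RPKM, whereas the T cell gene Cd3e stayed under 1 RPKM. The 3 tables were normalized separately, and differences were tested only within a table. Samples were single animals or pools of animals, and litters and days are not given, so p-values measure the spread between these samples as deposited. In both GL261 tables the replicate differences lacked 1 dimension, so this spread may understate that between animals.

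Microglia are resident macrophages of the brain that derive from the yolk sac, and in the resting state they hold a set of surface receptors with which they sense neurons and damage. Neuronal fractalkine signals through Cx3cr1, and purines are sensed through P2ry12. These genes are commonly used to tell microglia from blood-derived macrophages, and their levels are known to fall when microglia become activated. Among the 9, Cx3cr1 is the fractalkine receptor, Gpr34 a receptor for lysophosphatidylserine, Adgrg1 (GPR56) an adhesion G protein-coupled receptor and Gpr165 an orphan receptor. Tmem119 encodes a single-pass membrane protein, Fcrls a scavenger receptor of the Fc receptor-like family and Siglech a sialic acid-binding lectin that plasmacytoid dendritic cells also express. Olfml3 and Sparc encode secreted glycoproteins of the extracellular matrix.

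On mm10, the receptor genes lie at chr9:119901616-120069879 (Cx3cr1, minus strand), chrX:13632089-13640858 (Gpr34, plus strand), chr8:94974751-95014217 (Adgrg1, plus strand) and chrX:96713441-96719388 (Gpr165, plus strand). The other membrane genes lie at chr5:113793729-113800516 (Tmem119, minus strand), chr3:87250758-87263738 (Fcrls, minus strand) and chr7:55768178-55778925 (Siglech, plus strand). The secreted genes lie at chr3:103722222-103738001 (Olfml3, minus strand) and chr11:55394500-55423183 (Sparc, minus strand). All values are per gene, over its exons. The span of Cx3cr1 overlaps the spans of Csrnp1, Gorasp1 and Xirp1 on the same strand. Whether their exons overlap, and how any shared reads were counted, was not examined.

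Promoters from RefSeq (GRCm38.p6) were matched for 7 of the 9 genes in 8 records, none being at hand for Tmem119 and Gpr34. They are shown because the myeloid factors PU.1 and RUNX1 bind short runs of DNA letters. Where these factors bind around the 9 genes was not examined. The search covered both strands for GAGGAA, a purine box of the PU.1 type, and TGTGGT, a RUNX core, in windows of 260 bases, 250 before and 10 after each start. The purine box occurred in Fcrls, 144 bases before the start, and in Siglech, 4 bases before it, against 24.1% of all 32851 promoters. The RUNX letters occurred in Fcrls at 41 and 18 bases before the start, in Siglech at 115 and in Cx3cr1 at 54, against 14.5% of all promoters. The letters TATAAA occurred in Fcrls and Gpr165, against 12.7% of all promoters. The promoters that held the RUNX letters are printed 5′ to 3′ on the strand of the gene, with GAGGAA and TGTGGT, or their reverse complements, in capitals. They span chr3:87263515-87263774 on the minus strand, chr7:55767934-55768193 on the plus strand and chr9:120068287-120068546 on the minus strand.
Fcrls: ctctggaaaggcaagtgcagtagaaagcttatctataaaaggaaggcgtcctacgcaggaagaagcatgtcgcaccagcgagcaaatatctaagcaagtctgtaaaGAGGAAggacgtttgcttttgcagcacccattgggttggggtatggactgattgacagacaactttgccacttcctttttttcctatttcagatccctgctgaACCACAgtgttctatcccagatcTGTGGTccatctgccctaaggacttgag
Siglech: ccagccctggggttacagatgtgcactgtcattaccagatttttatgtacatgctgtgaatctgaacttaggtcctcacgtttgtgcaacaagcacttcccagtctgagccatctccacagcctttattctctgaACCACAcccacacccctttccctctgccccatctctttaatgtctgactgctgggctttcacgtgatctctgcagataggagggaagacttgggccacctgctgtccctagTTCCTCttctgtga
Cx3cr1: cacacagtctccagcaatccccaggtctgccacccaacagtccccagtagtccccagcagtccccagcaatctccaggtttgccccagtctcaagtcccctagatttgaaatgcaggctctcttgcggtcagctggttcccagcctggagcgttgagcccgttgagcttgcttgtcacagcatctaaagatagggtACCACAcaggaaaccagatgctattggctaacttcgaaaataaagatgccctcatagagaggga
A match of letters is a description of the sequence and was not tested for binding.

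In naïve mice Cx3cr1 and Tmem119 were the most abundant of the 9, at 2328 ± 107 and 2207 ± 131 RPKM (SD, n = 3), and their samples overlapped. Fcrls followed at 1600.4 ± 46.4 RPKM and Sparc at 1266 ± 18.6 RPKM. Olfml3 at 567 ± 6.52 RPKM stood above Gpr34 at 497 ± 22.5 RPKM, and below them came Adgrg1 at 351 ± 14.2 RPKM and Siglech at 347 ± 8.98 RPKM, which overlapped. Gpr165 was the lowest at 41.4 ± 2.34 RPKM. The replicates of naïve mice lay close together for every gene. In vehicle-treated GL261 mice at 21 DPI Cx3cr1 and Tmem119 again led and overlapped, but Fcrls no longer stood above Sparc. There Sparc, Fcrls and Olfml3 overlapped with their neighbours in the order, as did Siglech, Adgrg1 and Gpr34, and Gpr165 remained the lowest. At 28 DPI the order in vehicle was Cx3cr1 and Tmem119, then Sparc, then Fcrls, Olfml3, Siglech, Adgrg1 and Gpr34, each overlapping its neighbour within these blocks, and then Gpr165. In U87-MG vehicle the first block held Cx3cr1, Tmem119 and Sparc, followed by Fcrls, then by Olfml3, Adgrg1, Siglech and Gpr34, and Gpr165.

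**Figure D1:**
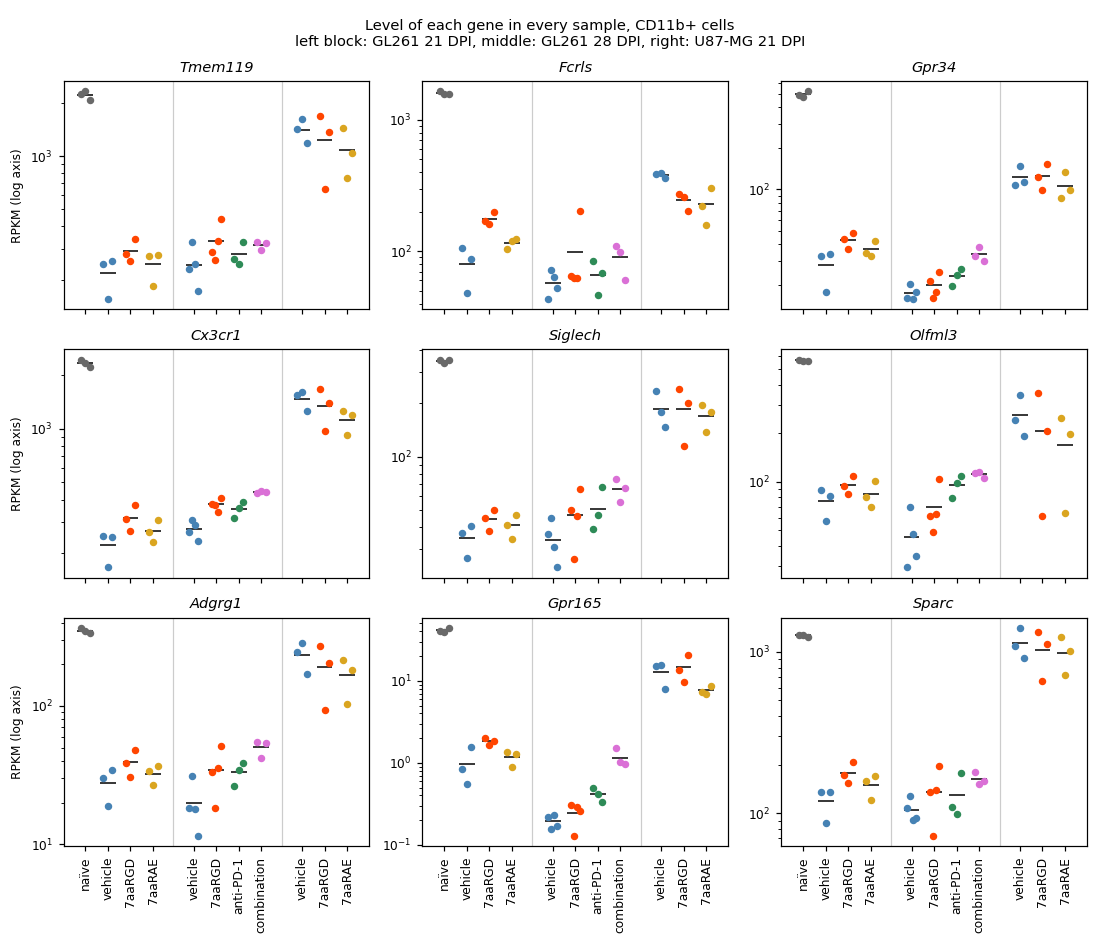
Level of each gene in every sample in RPKM on a log axis, 1 panel per gene, with groups along the x axis and vertical lines between the 3 tables, which were normalized separately; points are samples and bars are group means. In the GL261 table at 21 DPI all 9 genes lie far below the naïve samples, as with Tmem119 at 155 to 255 RPKM in vehicle at 21 DPI against 2065 to 2324 RPKM in naïve mice.

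The comparison of vehicle with naïve mice addressed how the myeloid compartment of the hemisphere differs when it bears a GL261 glioma. All 9 genes were lower in vehicle, with 2.37% to 13.4% of the naïve mean left, and no vehicle sample reached any naïve sample, as held for 49.8% of all genes tested. Cx3cr1 was at 2437, 2324 and 2222 RPKM in the 3 naïve samples and at 251, 166 and 248 RPKM in the vehicle samples. Gpr34 was at 491, 477 and 521 RPKM in naïve mice and at 32.4, 17.9 and 33.5 RPKM in vehicle. Adgrg1 was at 366, 349 and 338 RPKM in naïve mice and at 30.3, 18.8 and 34.7 RPKM in vehicle. In each of these receptor genes the second vehicle sample was the lowest. Gpr165 was at 40.6, 39.5 and 44.0 RPKM in naïve mice and at 0.840, 0.559 and 1.54 RPKM in vehicle, near the limit of 1 RPKM used as a filter.

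Among the other membrane proteins Tmem119 was at 2233, 2324 and 2065 RPKM in naïve mice and at 246, 155 and 255 RPKM in vehicle. Fcrls was at 1653, 1565 and 1583 RPKM in naïve mice and at 106, 48.4 and 86.6 RPKM in vehicle. Siglech was at 351, 337 and 354 RPKM in naïve mice and at 37.0, 26.7 and 40.3 RPKM in vehicle. These 3 genes thus kept 9.92%, 5.02% and 9.98% of their naïve mean. Of the secreted proteins, Olfml3 was at 573, 566 and 560.3 RPKM in naïve mice and at 88.4, 56.9 and 82.1 RPKM in vehicle. Sparc was at 1277, 1277 and 1244 RPKM in naïve mice and at 136, 86.9 and 136 RPKM in vehicle. Olfml3 kept the highest share of its naïve mean, 13.4%, and Gpr165 the lowest, 2.37%.

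All 9 genes passed the test (limma, Benjamini-Hochberg adjusted p of 8.81e-07 or less), among 48.2% of the 9722 genes tested that were called lower and 82.9% called in either direction. On the log2(RPKM + 1) scale, which understates the change of a gene as low as Gpr165, the differences ran from −2.91 ± 0.15 (SE) for Olfml3 to −4.45 ± 0.16 for Gpr165. Fcrls fell by 4.37 ± 0.25 and Gpr34 by 4.16 ± 0.21 on this scale, against smaller falls in Cx3cr1 (−3.41 ± 0.15), Tmem119 (−3.36 ± 0.18) and Siglech (−3.31 ± 0.13). The median of the 9 was −3.42, against −0.14 over all genes tested. That shift of all genes became 0.00 with TMM factors and 0.02 with median-of-ratios factors, and with these 50.2% and 51.4% of the calls were higher, against 41.8% without them.

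A further list of 20 homeostatic microglia genes behaved in the same direction, with 20 of 20 lower and a median of −2.84. Slc2a5, a fructose transporter, and P2ry12, a purine receptor, had the largest differences, at −4.22 and −4.08, and P2ry6 and Csf1r the smallest, at −0.41 and −1.95. Markers of other cells moved as well. The summed level of 14 genes of monocytes and monocyte-derived macrophages was 53.5 to 55.3 RPKM in naïve samples and 2798 to 3561 RPKM in vehicle, with 14 of 14 higher. Of 12 genes of activated and disease-associated microglia, 11 were tested and 8 were higher. Over all genes tested, 34.6% were called higher. In CD11b+ cells sorted in bulk, fewer microglia and less of these transcripts per microglial cell cannot be told apart. Siglech is also a gene of plasmacytoid dendritic cells, whose 8 markers summed to 11.0 to 12.03 RPKM in naïve samples and 34.7 to 40.9 RPKM in vehicle, opposite in direction to Siglech.

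The same 9 genes were lower than in naïve mice under both peptides. In 7aaRGD the differences ran from −2.56 for Olfml3 to −3.90 for Gpr165, with a median of −2.96, where 47.3% of genes were called lower, 82.4% in either direction, and 48.5% were lower without overlap. In 7aaRAE they ran from −2.76 for Olfml3 to −4.29 for Gpr165, with a median of −3.19, where these shares were 48.6%, 83.2% and 49.5%. These comparisons and that of vehicle share the naïve samples. As a share of the naïve mean, Fcrls was at 5.02% in vehicle, 11.0% in 7aaRGD and 7.25% in 7aaRAE. Tmem119 was at 9.92%, 13.2% and 11.1%, and Sparc at 9.45%, 14.0% and 11.8%, in the same order.

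**Figure D2:**
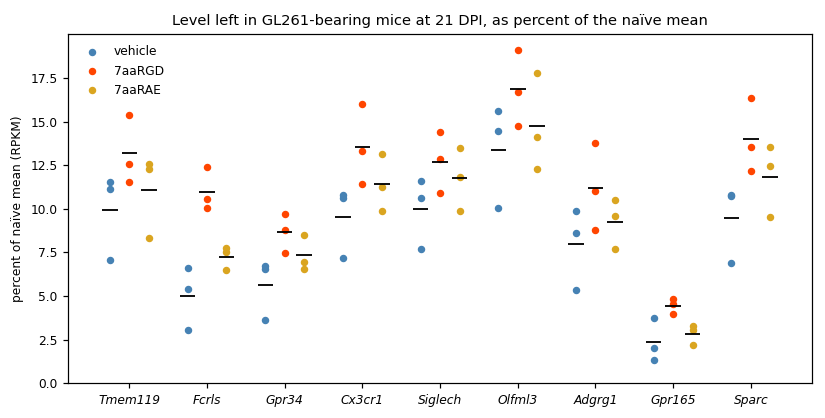
Level of each gene in the 9 GL261 samples at 21 DPI as percent of the mean of the 3 naïve samples (RPKM), with points for samples and bars for group means. Olfml3 keeps the most (13.4% in vehicle) and Gpr165 the least (2.37%), and the 7aaRGD points of Fcrls lie above its vehicle and 7aaRAE points.

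The effect of the integrin-blocking peptide at 21 DPI was then examined against vehicle. All 9 genes had higher means in 7aaRGD than in vehicle, by 0.35 to 1.19 on the log2 scale, but none passed the test, with 0.148% of 9436 genes (14 genes) called. Fcrls was at 169, 161 and 198 RPKM in 7aaRGD, against 106, 48.4 and 86.6 RPKM in vehicle. Every 7aaRGD sample was above every vehicle sample. The difference in Fcrls was 1.19 ± 0.24 (95% confidence interval 0.66 to 1.72, limma adjusted p = 0.119), a ratio of means of 2.19.

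The receptor genes differed less. Cx3cr1 was at 309.6, 266 and 372 RPKM in 7aaRGD, a difference from vehicle of 0.52 ± 0.18 (limma adjusted p = 0.277). For Gpr34 the samples were at 43.6, 36.9 and 48.2 RPKM, a difference of 0.65 ± 0.21 (limma adjusted p = 0.264). Both genes stood above vehicle in every sample. Adgrg1 was at 38.7, 30.8 and 48.3 RPKM, which overlapped vehicle (0.50 ± 0.23, limma adjusted p = 0.377). Gpr165 was at 2.00, 1.65 and 1.87 RPKM, above every vehicle sample (0.55 ± 0.16, limma adjusted p = 0.235).

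Tmem119 was at 278, 255 and 339.8 RPKM in 7aaRGD, with its lowest sample just above the highest vehicle sample (0.43 ± 0.22, limma adjusted p = 0.419). Sparc was at 171, 154 and 207 RPKM, above vehicle in every sample (0.58 ± 0.19, limma adjusted p = 0.266). Siglech was at 44.6, 37.8 and 49.9 RPKM and Olfml3 at 94.7, 83.6 and 108 RPKM. Both overlapped vehicle, with differences of 0.35 each. In all, 6 of the 9 genes did not overlap and were higher in 7aaRGD, against a background of 12.5% of genes, and 9 of 9 differences were positive, against 57.7%. The median over the 9 was 0.52, against 0.02 over all genes tested. The 9 genes varied together over these samples (Pearson correlation of 0.85 to 0.99 with the mean of the others), so these counts are not separate observations. Without the second vehicle sample the differences were smaller, at 0.86 for Fcrls, 0.37 for Gpr34 and Sparc, 0.39 for Gpr165, 0.33 for Cx3cr1, 0.25 for Adgrg1, 0.20 for Tmem119, 0.18 for Siglech and 0.16 for Olfml3.

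The second vehicle sample was the lowest of the 9 tumor samples for all 9 genes, and the third 7aaRGD sample was the highest for 8 of them, Gpr165 being highest in the first. Of the 20 other homeostatic genes, 0 passed the test, 18 had positive differences and 7 did not overlap, with a median of 0.33. Ecscr and Slc2a5 had the largest differences, at 0.66 and 0.61. Sums of markers of other cells that moved in the same direction without overlap were those of conventional dendritic cells, at 67.9 to 75.4 RPKM in vehicle and 84.5 to 98.2 RPKM in 7aaRGD, and of the oligodendrocyte lineage, at 17.6 to 23.8 and 27.4 to 37.6 RPKM. Those of endothelial cells, pericytes and fibroblasts, at 8.95 to 10.3 and 12.7 to 15.1 RPKM, and of astrocytes and neurons, at 6.47 to 8.61 and 9.42 to 11.6 RPKM, did so at low levels. The NK and T cell markers, at 5.53 to 17.5 and 15.1 to 39.0 RPKM, and the monocyte list, at 2798 to 3561 and 2595 to 2862 RPKM, overlapped. Within the oligodendrocyte list Sox10 was at 1.86 to 2.83 RPKM in vehicle and 4.17 to 5.64 RPKM in 7aaRGD, whereas Mbp overlapped, at 6.92 to 9.03 and 8.25 to 8.92 RPKM. The part of these cells in the differences of the 9 genes was not tested.

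The control peptide gave smaller differences from the same vehicle samples. Fcrls was at 104, 120.3 and 124 RPKM in 7aaRAE, a difference from vehicle of 0.59 ± 0.24 (limma adjusted p = 0.718), and its lowest sample overlapped vehicle. None of the 9 genes passed the test by limma, where 0 genes of 9436 did and 600 had an unadjusted p under 0.05. All 9 differences were positive, with a median of 0.24, against 52% of all genes, and 0 of 9 stood above vehicle without overlap, against 6.13%. Cx3cr1 was at 262, 230.4 and 305 RPKM and Tmem119 at 272, 184 and 277 RPKM in 7aaRAE, and both group means lay between those of vehicle and 7aaRGD.

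The peptides differ in the integrin-binding motif, and their direct comparison called none of the 9 genes by limma, as none of 9436 genes, with 520 at an unadjusted p under 0.05. Fcrls was higher in every 7aaRGD sample than in every 7aaRAE sample, by 0.59 (95% confidence interval 0.06 to 1.12), without passing the test (limma adjusted p = 0.859). Gpr165 did not overlap either, at 1.36, 0.897 and 1.27 RPKM in 7aaRAE, a difference of 0.39 (0.03 to 0.75, limma adjusted p = 0.874). The background of genes that did not overlap and were higher was 7.82%. All 9 differences were positive, against 58.2% of genes, with a median of 0.25. Intervals of the other 7 genes included 0, from −0.22 to 0.75 in Tmem119 and from −0.26 to 0.49 in Siglech, so that a difference between the peptides was neither shown nor bounded closely.

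The proportions of the 9 genes within a sample were described as well. Summed over the 9 genes, the level was 9204 ± 249 RPKM in naïve mice, 808 ± 199 RPKM in vehicle, 1184 ± 176 RPKM in 7aaRGD and 970.3 ± 143 RPKM in 7aaRAE at 21 DPI. Fcrls made up 16.9% to 17.7% of this sum in naïve samples, 8.38% to 11.4% in vehicle, 14.4% to 15.7% in 7aaRGD and 10.5% to 14.7% in 7aaRAE. The share of Fcrls in 7aaRGD therefore lay between vehicle and naïve mice without overlapping either. Its share in 7aaRAE overlapped those in both vehicle and 7aaRGD. Olfml3 showed the opposite order, with 6.09% to 6.27% of the sum in naïve samples, 8.95% to 9.84% in vehicle, 7.88% to 8.23% in 7aaRGD and 8.12% to 9.12% in 7aaRAE, which overlapped both. Tmem119 and Siglech also had lower shares in 7aaRGD than in vehicle without overlap, at 24.1% to 24.8% against 26.5% to 27.8% and 3.63% to 3.88% against 3.98% to 4.63%. In 7aaRAE the share of Tmem119, at 22.4% to 27.5%, overlapped both, and that of Siglech, at 4.17% to 4.24%, overlapped vehicle only. Shares sum to 100%, so a higher share of Fcrls lowers the others. With 3 samples against 3 the exact two-sided permutation test run on the shares cannot give a p below 0.1, so no difference in share at 21 DPI could pass.

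**Figure D3:**
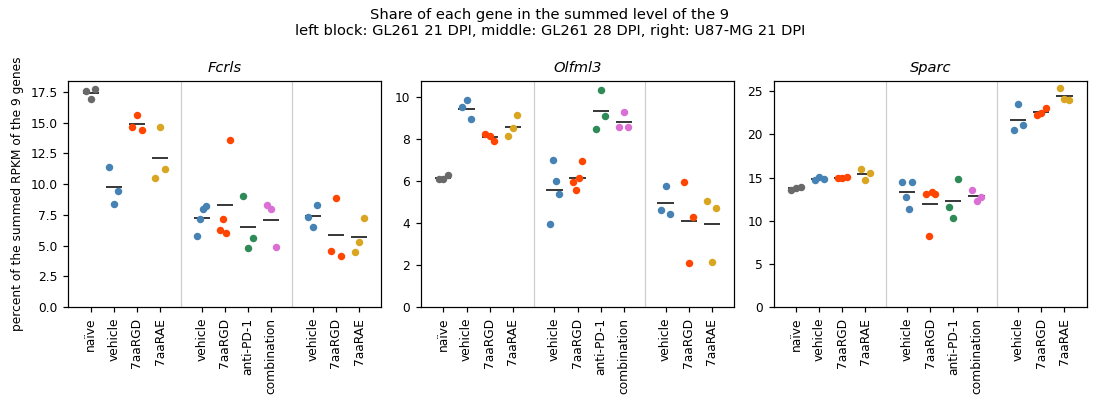
Share of Fcrls, Olfml3 and Sparc in the summed RPKM of the 9 genes, in percent, with points for samples, bars for group means and vertical lines between the 3 tables. Fcrls makes up 16.9% to 17.7% in naïve samples, and Olfml3 makes up 8.49% to 10.3% in anti-PD-1 samples, against 3.96% to 7.00% in vehicle of the same table.

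At 28 DPI the treatments were the peptide, the checkpoint antibody anti-PD-1 and their combination. With 7aaRGD alone a change was called in Cx3cr1, which was at 379.9, 371, 341 and 409.8 RPKM, against 263, 307, 288 and 234 RPKM in vehicle. Every 7aaRGD sample was above every vehicle sample, as in 3.97% of genes. Cx3cr1 rose by 0.46 ± 0.089 on the log2 scale (limma adjusted p = 0.0341), the only one of the 8 genes tested to pass, where 0.647% of 9732 genes were called and 0.123% were called higher. This call was lost with TMM or median-of-ratios factors, with no filter, with the replicate number as a block, with only the groups compared and with 1 residual degree of freedom less (limma adjusted p of 0.0513 to 0.135), and when any sample was left out. Gpr165 had a mean under 1 RPKM in this table and was not among the genes tested.

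The other 7 genes had differences that did not pass the test, and all 8 were positive, against 54.4% of genes. Adgrg1 was at 18.2, 31.2, 18.0 and 11.5 RPKM in vehicle and at 33.4, 18.2, 35.7 and 51.5 RPKM in 7aaRGD (0.78 ± 0.29, limma adjusted p = 0.248). Olfml3 was at 29.4, 69.8, 47.7 and 34.4 RPKM in vehicle and at 61.4, 48.7, 63.6 and 104 RPKM in 7aaRGD (0.63 ± 0.25, limma adjusted p = 0.264). Both overlapped. Fcrls was at 43.3, 71.6, 63.4 and 52.3 RPKM in vehicle and at 65.2, 62.5, 63.0 and 204 RPKM in 7aaRGD. The difference of 0.58 ± 0.35 in Fcrls (limma adjusted p = 0.452) came with 1 sample far above the other 3, and was 0.16 without it. Tmem119, Siglech, Sparc and Gpr34 had differences of 0.45, 0.43, 0.30 and 0.17. The fourth 7aaRGD sample was the highest of the 14 samples for Tmem119, Fcrls and Sparc. The median of the 8 genes was 0.46, against 0.01 over all genes.

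With anti-PD-1, Olfml3 and Cx3cr1 rose. Olfml3 was at 79.6, 98.7 and 109 RPKM, above all 4 vehicle samples, and rose by 1.13 ± 0.27 (limma adjusted p = 0.00933). Cx3cr1 was at 315, 360.2 and 386 RPKM and rose by 0.37 ± 0.096 (limma adjusted p = 0.014), with every sample above vehicle (15.4% of genes were higher without overlap), a call that was lost without the second or the third anti-PD-1 sample (limma adjusted p of 0.0542 and 0.0584). In this comparison 23.1% of genes were called and 10.8% were called higher, beside 2 of the 8 genes. Gpr34 at 19.7, 23.7 and 26.1 RPKM (0.38 ± 0.14, limma adjusted p = 0.0708) and Adgrg1 at 26.2, 34.2 and 38.9 RPKM (0.78 ± 0.32, limma adjusted p = 0.0925) did not pass. Tmem119, Fcrls, Siglech and Sparc overlapped vehicle, with differences of 0.22, 0.18, 0.57 and 0.26. All 8 differences were positive, against 49% of genes, with a median of 0.38. The share of Olfml3 in the sum of the 9 was 3.96% to 7.00% in vehicle and 8.49% to 10.3% in anti-PD-1.

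In the combination 5 of the 8 genes rose against vehicle, where 17.5% of 9732 genes were called higher and 43.3% in either direction. They were the receptors Gpr34, Cx3cr1 and Adgrg1, the lectin Siglech and the secreted Olfml3. Gpr34 was at 32.6, 37.7 and 30.0 RPKM, against 16.0, 20.5, 15.8 and 17.9 RPKM in vehicle, and rose by 0.89 ± 0.14 (limma adjusted p = 0.000285). Cx3cr1 was at 434, 446 and 442 RPKM and rose by 0.70 ± 0.096 (limma adjusted p = 9.84e-05). These combination samples were the most alike of any group in Cx3cr1, with an SD of 5.72 RPKM. Adgrg1 was at 54.8, 42.3 and 54.0 RPKM and rose by 1.38 ± 0.32 (limma adjusted p = 0.00349).

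Olfml3 was at 114, 116 and 106 RPKM in the combination and rose by 1.36 ± 0.27 (limma adjusted p = 0.0013). Siglech was at 74.2, 55.0 and 66.3 RPKM, against 36.4, 44.8, 30.6 and 23.6 RPKM in vehicle, and rose by 0.95 ± 0.28 (limma adjusted p = 0.0137). In the same samples the plasmacytoid dendritic cell list, whose cells also express Siglech, was at 18.1 to 21.7 RPKM in vehicle, 26.3 to 29.3 RPKM in anti-PD-1 and 25.6 to 31.4 RPKM in the combination, and its part in the Siglech difference was not tested. Siglech lost this call without the first combination sample (limma adjusted p = 0.0573). Sparc was at 180.1, 153 and 158 RPKM, above every vehicle sample at 108, 127, 90.6 and 92.7 RPKM, a difference of 0.65 ± 0.27 that did not pass (limma adjusted p = 0.0678). Tmem119 at 328, 295 and 322 RPKM and Fcrls at 111, 99.4 and 60.9 RPKM overlapped vehicle (0.41 ± 0.20 and 0.62 ± 0.37, limma adjusted p of 0.111 and 0.196). In all, 6 of 8 genes were higher without overlap, against 20% of genes. All 8 differences were positive, against 43.5% of genes, and their median was 0.80, against −0.05 over all genes. Of the calls over all genes, 40.5% were higher, or 50.6% and 51.1% with TMM and median-of-ratios factors.

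Gpr165 could be tested only without the filter on low levels, over 16940 genes. It was at 0.219, 0.156, 0.233 and 0.171 RPKM in vehicle and at 1.50, 1.02 and 0.961 RPKM in the combination. The difference was 0.85 ± 0.078 (limma adjusted p = 1.74e-05), where 28.6% of genes were called. In 7aaRGD Gpr165 was at 0.307, 0.129, 0.289 and 0.255 RPKM, and in anti-PD-1 at 0.497, 0.418 and 0.329 RPKM, with differences of 0.06 and 0.24 (limma adjusted p of 0.817 and 0.0614). All these levels are near the lowest that the tables hold, and depth is unknown, so they carry less weight than those of the other genes.

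The list of 20 other homeostatic genes did not move one way in the combination, with 7 higher, 3 lower and a median of 0.31. Over all genes tested, 17.5% were called higher and 25.8% lower. The summed level of this list was 3826 to 5008 RPKM in vehicle and 3915 to 5343 RPKM in anti-PD-1. In the combination it was 5282 to 5744 RPKM, above vehicle without overlap. Slc2a5 and Crybb1 had the largest differences, at 1.79 and 1.61, and Ltc4s and Rnase4 the smallest, at −1.98 and −0.50. Sums of markers of other cells moved alongside. The summed NK and T cell markers were at 2.33 to 8.66 RPKM in vehicle, 2.01 to 50.4 RPKM in anti-PD-1 and 20.4 to 69.6 RPKM in the combination. The monocyte list was at 683 to 972, 1079.5 to 1623 and 953 to 1332 RPKM, and the list of activated microglia at 13169.7 to 16744, 10126 to 13548 and 9847 to 12554 RPKM, in the same order. Apoe alone made up most of the activated microglia sum, at 11366 to 15219, 8462 to 12252 and 8240 to 10796 RPKM in that order. The conventional dendritic cell list was at 1.90 to 3.97 RPKM in vehicle and 14.1 to 17.5 RPKM in the combination, and that of patrolling monocytes, which also express Cx3cr1, at 101 to 121 and 137 to 146 RPKM. The lists of the oligodendrocyte lineage and of endothelial cells, pericytes and fibroblasts were lower, at 30.3 to 45.6 and 6.004 to 8.84 RPKM in vehicle and 22.3 to 24.5 and 3.50 to 4.41 RPKM in the combination. Members of the oligodendrocyte list did not move alike. Sox10 was at 5.90 to 8.66 RPKM in vehicle and 1.56 to 2.01 RPKM in the combination, whereas Mbp overlapped, at 7.62 to 10.3 and 9.28 to 11.1 RPKM. The part of these cells in the differences of the 9 genes was not tested.

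**Figure D4:**
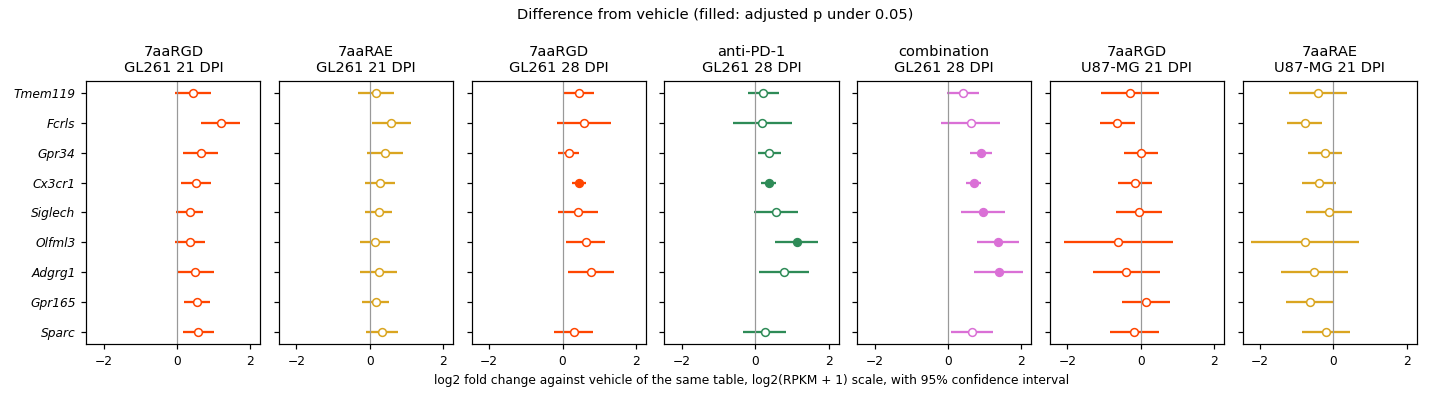
Difference of each gene from vehicle of the same table on the log2(RPKM + 1) scale, 1 panel per treatment; points are log2 fold changes, lines are 95% confidence intervals and filled points have a limma adjusted p under 0.05. Filled points are found at 28 DPI, with 1 gene in 7aaRGD, 2 in anti-PD-1 and 5 in the combination, and Gpr165 was not tested there.

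To see what each part of the combination added, it was compared with the single treatments. Against anti-PD-1 none of the 8 genes passed by limma, with 0.0411% of genes (4 genes) called, 0.0206% higher, and 1459 genes at an unadjusted p under 0.05. All 8 differences were positive, against 38.9% of genes, with a median of 0.38, and Gpr34 (0.51), Cx3cr1 (0.32) and Adgrg1 (0.60) did not overlap, against a background of 6.24%. Without the filter Gpr165 was higher by 0.60 ± 0.084 (limma adjusted p = 0.0339, 0.118% of genes called). Against 7aaRGD, Gpr34 rose by 0.72 ± 0.14 (limma adjusted p = 0.00182) and Olfml3 by 0.74 ± 0.27 (limma adjusted p = 0.0457), where 36.6% of genes were called and 13% were called higher. Olfml3 lost this call with the replicate block (limma adjusted p = 0.0608) and when any sample but the fourth 7aaRGD sample was left out (limma adjusted p of 0.0818 to 0.112), and Cx3cr1 passed with TMM or median-of-ratios factors (0.31 each, limma adjusted p of 0.0262 and 0.0277). Of the 8 differences 7 were positive, against 40.2% of genes, and Gpr34, Cx3cr1 and Olfml3 did not overlap, against 14.5%. Tmem119 and Fcrls differed from 7aaRGD by −0.04 and 0.04, with intervals of −0.47 to 0.39 and −0.76 to 0.84. Without the filter Gpr165 was higher than in 7aaRGD by 0.79 ± 0.078 (limma adjusted p = 7.75e-05, 22.5% of genes called), at levels near the lowest measured.

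The interaction of 7aaRGD and anti-PD-1, a test of whether the single differences add up to that of the combination, called none of the 8 genes and none of all 9732 genes by limma, with 794 at an unadjusted p under 0.05. It was positive for Gpr34 (0.34, 95% confidence interval −0.09 to 0.78) and Sparc (0.09, −0.74 to 0.91) and negative for the other 6, with a median of −0.14 against −0.06 over all genes. Most of these intervals were wide, such as that of Adgrg1, from −1.14 to 0.79. Without the filter Gpr165 had an interaction of 0.55 (95% confidence interval 0.31 to 0.79), which did not pass (limma adjusted p = 0.432). Its levels were near the lowest measured.

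In the U87-MG experiment, in nude mice, the group means of all 9 genes were higher than in any tumor-bearing group of the GL261 tables. Tmem119 was at 1413, 1619 and 1182 RPKM in the vehicle samples named A, B and C, and Cx3cr1 at 1546, 1595 and 1254 RPKM. The sum of the 9 genes was 5202 ± 824 RPKM in vehicle, 4578 ± 1539 RPKM in 7aaRGD and 4038 ± 969 RPKM in 7aaRAE. The host, the tumor line and the normalization of the table differ from GL261 together and cannot be told apart, and no naïve nude mice were analysed here. The monocyte list summed to 337 to 655 RPKM over the 9 samples.

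Samples 7aaRGD B and 7aaRAE B stood apart. They had the lowest levels of 8 of the 9 genes, 7aaRGD B for 5 of them and 7aaRAE B for 3, the exception being Gpr34, lowest in 7aaRAE A. In these 2 samples the sums of the 20 other homeostatic genes were 16369 and 17594 RPKM, against 19699 to 24823 RPKM in the other 7. The sums of activated microglia genes were 16170.3 and 13489.7 RPKM in them, against 6305 to 13380.3 RPKM, and those of monocyte genes were 655 and 646 RPKM, against 337 to 639 RPKM. Apoe alone made up most of the activated microglia sums, at 4412 to 13081 RPKM over all samples of the experiment. Since low levels of the 9 genes are part of what set these samples apart, values without them are descriptions, and leaving out 7aaRGD B had to raise the differences of the 5 genes lowest in it.

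None of the 9 genes passed the test against vehicle in either peptide group by limma. In 7aaRGD 0 of 9659 genes were called, with 364 at an unadjusted p under 0.05, and in 7aaRAE 0.0104% (1 gene), with 746. Fcrls was at 387, 391 and 361 RPKM in vehicle, at 272, 259 and 204 RPKM in 7aaRGD and at 222, 159 and 306 RPKM in 7aaRAE. It was lower in every peptide sample than in every vehicle sample, by −0.64 ± 0.21 for 7aaRGD and −0.78 ± 0.21 for 7aaRAE (limma adjusted p of 0.941 and 0.388). The background of genes that did not overlap and were lower was 6.4% and 9.46%. For 7aaRGD against vehicle, the direction in Fcrls was opposite to that in GL261 mice at 21 DPI.

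The other genes overlapped vehicle in 7aaRGD. Tmem119 was at 1677, 653 and 1361 RPKM in 7aaRGD, Cx3cr1 at 1674, 972 and 1386 RPKM, and Sparc at 1326, 656 and 1119 RPKM, with sample B lowest in each. Olfml3 varied most, at 244, 345 and 192 RPKM in vehicle, 354, 61.1 and 207 RPKM in 7aaRGD and 247, 64.0 and 199 RPKM in 7aaRAE. The median difference of the 9 genes was −0.17 for 7aaRGD and −0.42 for 7aaRAE, with 7 and 9 negative differences. Without the 2 samples B that stood apart, Fcrls was at −0.69 in 7aaRGD and −0.54 in 7aaRAE, and the other 8 genes were at 0.05 to 0.39 in 7aaRGD and −0.58 to 0.03 in 7aaRAE. The medians of the 9 were then 0.12 and −0.22. In 7aaRAE Cx3cr1 was at 1254, 916 and 1194 RPKM, just under the lowest vehicle sample (−0.39 ± 0.21, limma adjusted p = 0.672).

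Between the peptides in U87-MG mice all 9 differences were positive, against 48.4% of genes, with a median of 0.14, and 0 of 9659 genes were called by limma, with 326 at an unadjusted p under 0.05. Gpr165 was at 13.5, 9.69 and 20.4 RPKM in 7aaRGD and at 7.35, 6.88 and 8.72 RPKM in 7aaRAE. It did not overlap, against 3.46% of genes, with a difference of 0.79 (95% confidence interval 0.14 to 1.44, limma adjusted p = 1). Vehicle held Gpr165 at 15.2, 15.8 and 7.92 RPKM and overlapped both. The intervals of the other 8 genes included 0, from −0.34 to 0.62 in Fcrls and from −1.32 to 1.65 in Olfml3. Leaving out 1 sample turned the sign of Tmem119, Fcrls, Siglech, Olfml3, Adgrg1 and Sparc, with 7aaRGD A or 7aaRAE B as the sample that gave the lowest value. Without both samples B, Fcrls was at −0.14, Gpr165 at 0.97 and the median of the 9 at 0.29.

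The 9 genes varied together among the tumor-bearing samples to different degrees, described here without a test since the samples share their group differences and scaling. Counts of positive or non-overlapping differences among the 9 are therefore not counts of separate observations. The Pearson correlation of each gene with the mean of the other 8 was 0.85 to 0.99 over 9 samples at 21 DPI. Over 14 samples at 28 DPI it was lowest for Fcrls, at 0.62, and it reached 0.96. In the 9 U87-MG samples Gpr34 (0.25) and Fcrls (0.43) followed the others least, and the other genes were at 0.66 to 0.98. Among 8899 genes that are not members, Slc2a5 (mean r of 0.96 over the 3 tables), Rtn1 (0.95), Kcnd1 (0.95) and P2ry12 (0.95) were most like the mean of the 9. Of the 10 most alike, Slc2a5, P2ry12 and Selplg were on the list of homeostatic genes, and Plxdc2, Sgce, Asph, Jam2 and Atp8a2 completed them.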

How the data were processed

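RNA of CD11b+ cells was analysed in 35 samples of 3 experiments, each in a table of its own. Per the methods of the study, reads were trimmed with Trimmomatic, aligned to mm10 with STAR and counted by strand with HTSeq (HTSeq 0.11.1 in the submitters' processing notes). In the deposited tables the authors had added 2 to each RPKM, as seen from rows without signal, which hold exactly 2 in every sample. The plan had foreseen normalized counts; the log transformation was kept. Between 3.13% and 9% of the values of a sample lay under the constant, though none of the 9 genes, and differences between replicates lacked 1 dimension in both GL261 tables (7 of 8 and 9 of 10), which points to a further step on the values that is not given in the sources used here. Read counts cannot be recovered, so the depth is unknown and no count test was used.

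The constant was subtracted, and rows were matched to the GENCODE annotation (98.7%). Protein-coding genes averaging 1 RPKM or more across the fitted samples were compared on the log2(RPKM + 1) scale by limma 3.58.1 under R 4.3.3 (lmFit, eBayes with a trend), with Benjamini-Hochberg adjustment over all genes tested and a threshold of 0.05. The tumor-bearing groups of a table were fitted together, and naïve samples with 1 other group. The script was tested on simulated data. The settings varied were the pseudocount (0.1 or 5), the filter (none, or 5 RPKM), the scaling (TMM or median-of-ratios factors), the genes (all those with a name) and the samples and model: only the groups compared, naïve samples added, a replicate block, 1 residual degree of freedom less and each sample left out. The 9 genes, the lists and the tests were chosen with earlier results of these data known. The plan was to name all 9 genes in every comparison, but for some comparisons part of them is given only by a count, range or median. Of a list the 2 genes with the largest and the 2 with the smallest difference may be named. Promoters came from RefSeq (GRCm38.p6). The samples numbered 4 with anti-PD-1, alone or combined, and naïve nude mice were not analysed here.

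Residuals of samples with the same replicate number had a correlation over 0.1 in 1 of 9 pairs at 21 DPI and 3 of 19 at 28 DPI. The samples were therefore not treated as paired in the main test. With so few samples, and a dimension missing from the replicate differences, these correlations cannot decide whether samples of a number shared a day or batch.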

Additional observations from a re-analysis of the deposited data

Results flagged for a closer look

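Fcrls in the fourth 7aaRGD sample at 28 DPI was at 204 RPKM, far from the other 3 samples of its group at 62.5 to 65.2 RPKM. The gap to the nearest sample was 0.981 of the range of the group. It was the only one flagged of 18 tests, 9 genes in each of the 2 groups with 4 samples, and chance flags about 1 in 20. The same sample was the highest of the 14 for Tmem119 and Sparc.

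The difference in Fcrls between 7aaRGD and vehicle had opposite signs in the 21 DPI experiments. Neither difference passed the test (limma adjusted p of 0.119 in GL261 and 0.941 in U87-MG). The ratio of means of 7aaRGD to vehicle was 2.19 in GL261 mice, where every 7aaRGD sample was above every vehicle sample, and in U87-MG mice every 7aaRGD sample was below every vehicle sample. The control peptide 7aaRAE had the same signs, at 0.59 in GL261, where it overlapped vehicle, and −0.78 in U87-MG. All 9 genes were screened in this way for both peptides. The difference between the experiments was not tested, since the tables were normalized separately and differ in tumor and host.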

How the results depend on the processing

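The RPKM values carry no depth, so counting error cannot be set apart from the spread between animals, and a difference that missed the threshold is bounded only by its interval. All 9 genes stayed lower than in naïve mice under every alternative run. For 7aaRGD against vehicle at 21 DPI the number of genes passing was 0, and 1 with naïve samples added (Fcrls, limma adjusted p = 0.0324); with a sample left out it was 0 to 1 (Gpr165 without vehicle 3, limma adjusted p = 0.0288). For 7aaRGD against vehicle at 28 DPI it was 1, and 0 with no filter, TMM or median-of-ratios factors, only the groups compared, the replicate block or 1 residual degree of freedom less, and 0 with any sample left out. For the combination against anti-PD-1 it was 0, and 1 with no filter (Gpr165). For the combination against 7aaRGD it was 2, and 1 with all genes with a name, the replicate block or 1 residual degree of freedom less, where Olfml3 was lost (limma adjusted p of 0.0501, 0.0608 and 0.0594, and 0.0803 with no filter), and 1 to 2 with a sample left out. For anti-PD-1 against vehicle it was 1 to 3 with a sample left out, 3 being reached without vehicle 2 (Adgrg1, limma adjusted p = 0.0324) or anti-PD-1 sample 1 (Gpr34, 0.0482). In the combination against vehicle, Fcrls (limma adjusted p = 0.0489) and Sparc (0.00304) passed with only the groups compared, and Tmem119 without vehicle 2 (0.0291). The replicate block changed no other call. No paired analysis was possible for U87-MG because the columns carry no replicate number.

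Small differences changed sign. The combination against 7aaRGD became 0.03 for Tmem119 with TMM and 0.03 with median-of-ratios factors, and the interaction for Siglech 0.01 and 0.02. In U87-MG, an alternative chosen after seeing the data left out 7aaRGD B and 7aaRAE B: against vehicle, 7aaRGD gave Tmem119 0.12, Cx3cr1 0.06, Siglech 0.26, Olfml3 0.10, Adgrg1 0.05 and Sparc 0.13, 7aaRAE gave Siglech 0.03 and Sparc 0.00, and 7aaRGD against 7aaRAE gave Fcrls −0.14. The causes were not tested.

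Leaving out each sample in turn gave these ranges where a sign changed. At 21 DPI, 7aaRAE against vehicle, Tmem119 ran from −0.06 to 0.36, Olfml3 from −0.04 to 0.27 and Adgrg1 from −0.01 to 0.41, and 7aaRGD against 7aaRAE, Siglech from −0.00 to 0.22. At 28 DPI, Fcrls ran from −0.01 to 0.42 for anti-PD-1 against vehicle, Tmem119 from −0.14 to 0.11 and Fcrls from −0.13 to 0.46 for the combination against 7aaRGD, and for the interaction Fcrls from −0.38 to 0.27, Siglech from −0.30 to 0.17, Adgrg1 from −0.45 to 0.04 and Sparc from −0.18 to 0.35. In U87-MG, 7aaRGD against vehicle ran from −0.56 to 0.12 for Tmem119, −0.15 to 0.18 for Gpr34, −0.33 to 0.06 for Cx3cr1, −0.27 to 0.26 for Siglech, −1.16 to 0.10 for Olfml3, −0.72 to 0.05 for Adgrg1, −0.14 to 0.39 for Gpr165 and −0.38 to 0.13 for Sparc. For 7aaRAE against vehicle Siglech ran from −0.28 to 0.06 and Sparc from −0.39 to 0.00, and for 7aaRGD against 7aaRAE Tmem119 from −0.14 to 0.54, Fcrls from −0.10 to 0.37, Siglech from −0.15 to 0.38, Olfml3 from −0.42 to 0.88, Adgrg1 from −0.20 to 0.58 and Sparc from −0.17 to 0.33.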

Other observations

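Markers of cells other than microglia were followed in the same samples. Neutrophil markers summed to 272 to 408 RPKM over 8 genes in naïve samples and 62.5 to 195 RPKM in vehicle at 21 DPI. Of these, 4 of 7 tested genes were lower, where 48.2% of all genes tested were called lower. Conventional dendritic cell markers summed to 14.2 to 16.8 RPKM in naïve samples and 67.9 to 75.4 RPKM in vehicle at 21 DPI. At 28 DPI they were at 1.90 to 3.97 RPKM in vehicle, 4.45 to 18.4 RPKM in anti-PD-1 and 14.1 to 17.5 RPKM in the combination. Mrc1, a mannose receptor of border-associated and other macrophages, was at 73.9 to 113 RPKM in vehicle and 24.8 to 53.6 RPKM in the combination at 28 DPI. These values are descriptions, and their relation to the 9 genes was not tested.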
